A study of Mus musculus with 6 samples.

Results

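The matrix metalloproteinases (MMPs), the ADAM and ADAMTS proteases and the tissue inhibitors of metalloproteinases (TIMPs) were followed through the knockdown (KD) of the long noncoding RNA *Ctcflos* in differentiating brite adipocytes. Members were taken by name: every symbol in the deposited table that begins with Mmp, Adam or Adamts followed by a digit, and *Timp1* to *Timp4*. This gave 79 of 52089 symbols, namely 23 MMP, 33 ADAM, 19 ADAMTS and 4 TIMP genes.

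The cells were primary preadipocytes of the stromal-vascular fraction of inguinal white adipose tissue (WAT) from 129SvEv mice. They were induced, then differentiated with rosiglitazone, a PPARγ agonist that drives browning, and all 6 libraries shared this regimen. Reverse transfection delivered 50 nM of an LNA gapmer, an antisense oligonucleotide that directs RNase H to its target RNA. In the 3 *Ctcflos* KD libraries it was directed against *Ctcflos*, in the 3 control libraries it was nontargeting, and cells were harvested 24 h later. Total RNA was sequenced after stranded library preparation. As only 1 oligonucleotide against *Ctcflos* was used for these libraries, loss of *Ctcflos* and other actions of that oligonucleotide cannot be told apart. The labels do not say whether the 3 libraries of a group came from separate cultures, so that p-values measure only the spread between these libraries, which may be technical.

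The values are RPKM (read number corrected for transcript length and for the size of the library), averaged over all transcript accessions listed for a symbol. Depth, recovered from the steps between low values, was 60.8 to 79.2 mio mapped reads per library. *Ctcflos* itself (1300015D01Rik in the table) stood at 0.0969, 0.0705 and 0.210 RPKM in KD replicates 1 to 3 and at 0.748, 0.751 and 0.840 RPKM in the controls, so that KD replicate 3 kept the most of it. Adipocyte markers summed to 4397 to 5864 RPKM in KD and 6053 to 6707 RPKM in controls, with 1 of 7 called lower (*Cebpa*) and none higher. For *Adipoq*, *Fabp4*, *Plin1*, *Pparg*, *Lpl* and *Cebpa* all KD libraries were below all controls, while *Cidec* overlapped. Of all genes tested, 12.4% were called lower, and in 44.8% the groups did not overlap in either direction. Endothelial and epithelial markers summed to at most 1.74 RPKM in any library. Control replicate 2 and KD replicate 3 stood apart from the other libraries of their groups in single genes of the macrophage and smooth muscle lists. *Lyz2* was at 24.5 RPKM in control replicate 2 and 12.8 RPKM in KD replicate 3 against 1.24 to 7.41 RPKM elsewhere, and *Acta2* at 83.6 and 48.2 RPKM against 17.2 to 38.8 RPKM. *Cd68* (1.92 RPKM) and *Csf1r* (0.833 RPKM) were also highest in control replicate 2 among controls. In KD replicate 3, however, both were lowest among KD libraries, at 2.16 and 1.1 RPKM.

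MMPs are zinc-dependent enzymes that are made as inactive proforms and cleave collagens, laminins and other proteins of the extracellular matrix. ADAMs are mostly membrane-anchored relatives that release the ectodomains of growth factors, cytokines and receptors, while ADAMTS proteases are secreted and process procollagens and proteoglycans. TIMPs bind the active site of these enzymes, and the balance of both is known to matter when preadipocytes remodel their surrounding collagen to become fat-laden cells.

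Of the 79 genes, 26 had a mean of at least 1 RPKM over the 6 libraries and entered the test, limma on log2(RPKM + 1) over all 11701 genes above that level. A gene was called at a Benjamini-Hochberg adjusted p under 0.05. *Ctcflos* KD lowered 9 of these 26 genes, or 34.6%, against 12.4% of all genes tested, and raised 1, or 3.85%, against 11.5%. In either direction 10 were called (38.5% against 24.0%), and 14 had an unadjusted p under 0.05. The 9 lower genes were spread evenly over the protease families, with 3 MMPs (*Mmp14*, *Mmp27*, *Mmp28*), 3 ADAMs (*Adam12*, *Adam19*, *Adam23*) and 3 ADAMTS genes (*Adamts2*, *Adamts9*, *Adamts12*), while no TIMP was called. *Mmp11* was the gene that rose. In 15 of 26 genes (57.7%) the KD and control libraries did not overlap, with KD below in 13 and above in 2, against 44.8% of all genes tested. The median log2 fold change was -0.16 over the 26 genes and 0.028 over all genes tested. By family it was -0.25 for MMPs, -0.24 for ADAMs, -0.26 for ADAMTS genes and 0.48 for TIMPs. *Mmp27*, *Mmp28* and *Adam23* had a KD mean under 1 RPKM and *Mmp24* a control mean under 1 RPKM, so that these 4 genes passed through 1 group alone. *Adam12*, *Adam23* and *Adamts2* were called whichever library was omitted, whereas the number of called members was 4, 5 and 11 without KD replicate 1, 2 or 3 and 3, 8 and 3 without control replicate 1, 2 or 3. The number of all genes called moved alike, with 1164, 1094 and 4810 genes without KD replicate 1, 2 or 3 and 421, 1583 and 369 without control replicate 1, 2 or 3. The highest limma adjusted p over these omissions was 0.0564 for *Adam19*, 0.0762 for *Adamts12*, 0.0775 for *Mmp11* and between 0.0938 and 0.159 for *Mmp14*, *Mmp27*, *Mmp28* and *Adamts9*. Of the 6 omission fits, *Adam19* was called in 4, *Mmp27* in 3, and *Mmp11* and *Mmp28* in 2 each. *Adamts12*, *Adamts9* and *Mmp14* were called in 1 alone, that without KD replicate 3. Without the filter on low values *Adam12*, *Adam19*, *Adam23* and *Adamts2* were called. In bulk RNA, fewer cells of a type and less RNA per cell cannot be told apart for any of these genes.

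**Figure D1:**
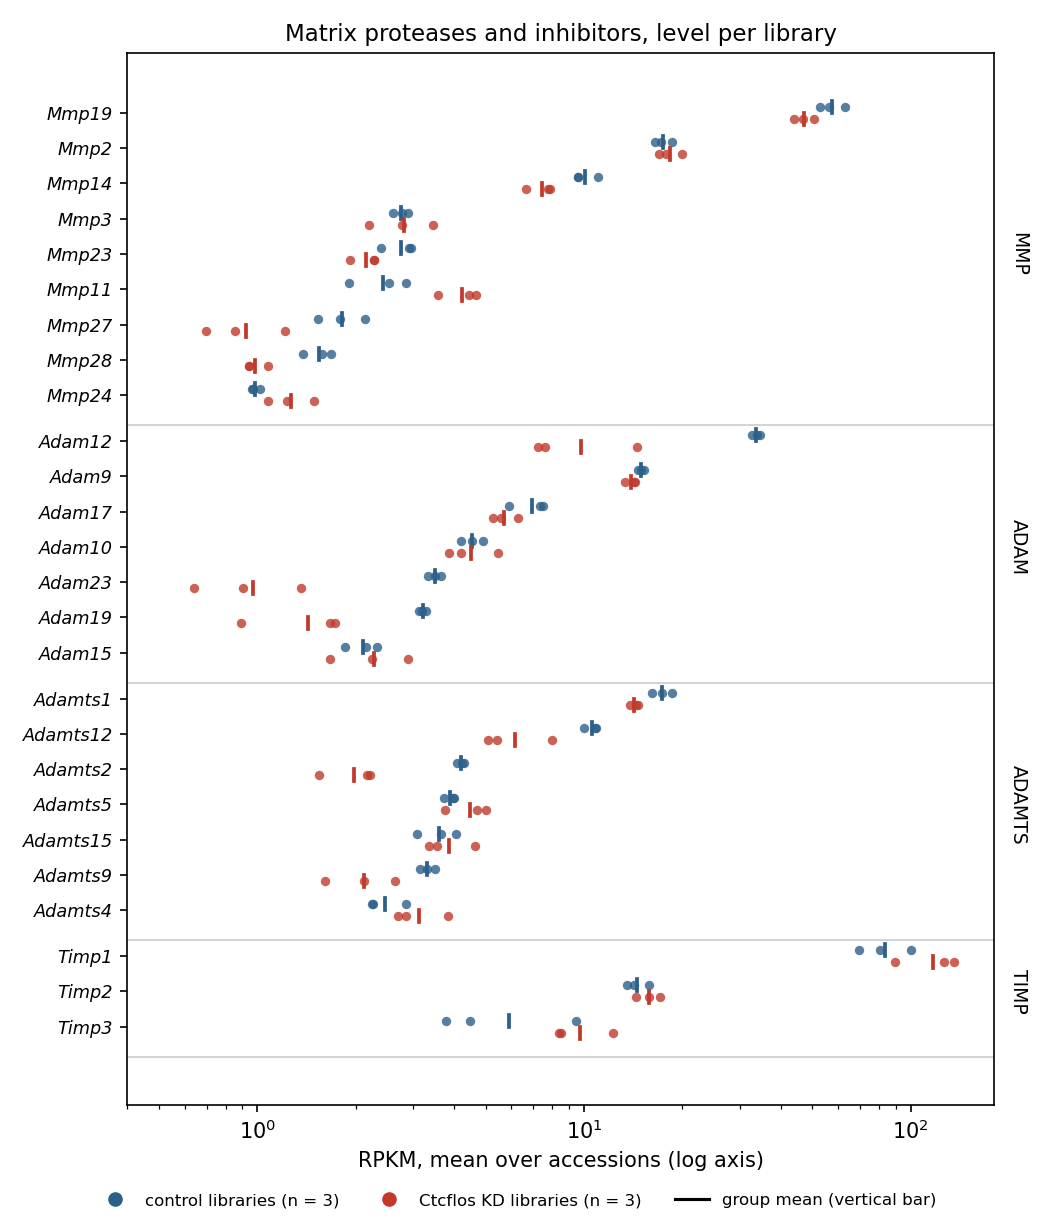
RPKM per library (log axis) of the 26 genes with a mean of at least 1 RPKM, by family, with control libraries in blue, *Ctcflos* KD libraries in red and group means as vertical bars. The red points of *Adam12*, *Adam23* and *Adamts2* lie well below the blue points, while those of *Timp1* and *Timp3* overlap them.

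*Adam12* and *Adam23* had the steepest decreases of the 26 genes. *Adam12*, or meltrin alpha, a membrane-bound protease known from fusing myoblasts and from adipose tissue growth, had 7.24, 7.61 and 14.5 RPKM in KD and 32.6, 34.5 and 33.8 RPKM in controls. Even KD replicate 3, in which *Ctcflos* was also highest among KD libraries, stayed below every control. KD replicate 3 was the highest KD library in only 4 of the 9 lower members and the lowest for *Mmp27*. A relation to the *Ctcflos* left was not tested. The KD mean of 9.80 ± 4.11 RPKM (SD, n = 3) was 29.1% of the control mean of 33.6 ± 0.986 RPKM (log2 fold change -1.75 ± 0.23 SE, limma adjusted p = 0.00488). In controls *Adam12* was the most abundant ADAM, ahead of *Adam9* at 15 ± 0.336 RPKM, and this held when only RefSeq accessions or the strongest accession of a gene were used. In KD libraries the mean of *Adam9* (14.0 ± 0.545 RPKM) exceeded that of *Adam12*, though not in KD replicate 3, where *Adam12* had 14.5 RPKM and *Adam9* 13.3 RPKM.

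*Adam23*, a catalytically inactive ADAM that acts in cell adhesion, had 0.906, 0.642 and 1.36 RPKM in KD and 3.50, 3.64 and 3.33 RPKM in controls. It fell to 27.8% of control without overlap (log2 fold change -1.20 ± 0.14, limma adjusted p = 0.00328). *Adam19*, or meltrin beta, which sheds neuregulins, had 1.73, 0.891 and 1.67 RPKM in KD against 3.30, 3.13 and 3.19 RPKM. Its level fell to 44.6% of control, again with every KD library below every control (log2 fold change -0.81 ± 0.15, limma adjusted p = 0.0106). Exons of *Adam19* overlap those of antisense genes *Gm16033* and *Gm16034*, and as strand use in the counting is not stated, reads of either strand cannot be told apart.

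The general sheddases did not pass the test. *Adam10*, the main sheddase of Notch receptors, had 4.51 ± 0.843 RPKM in KD and 4.56 ± 0.347 RPKM in controls, with overlapping libraries and no stable direction over the alternatives tried. *Adam17*, which releases TNF and EGF receptor ligands, had 5.70 ± 0.514 and 6.91 ± 0.881 RPKM (log2 fold change -0.24, limma adjusted p = 0.179). *Adam9* stood at 93.3% of control without overlap (adjusted p = 0.513), and *Adam15*, or metargidin, at 107% with overlap (adjusted p = 0.797). Summed over the 33 ADAM genes, the level was 39.2, 36.3 and 44.7 RPKM in KD and 70.2, 70.8 and 69.7 RPKM in controls, and *Adam12* made up most of this gap.

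**Figure D2:**
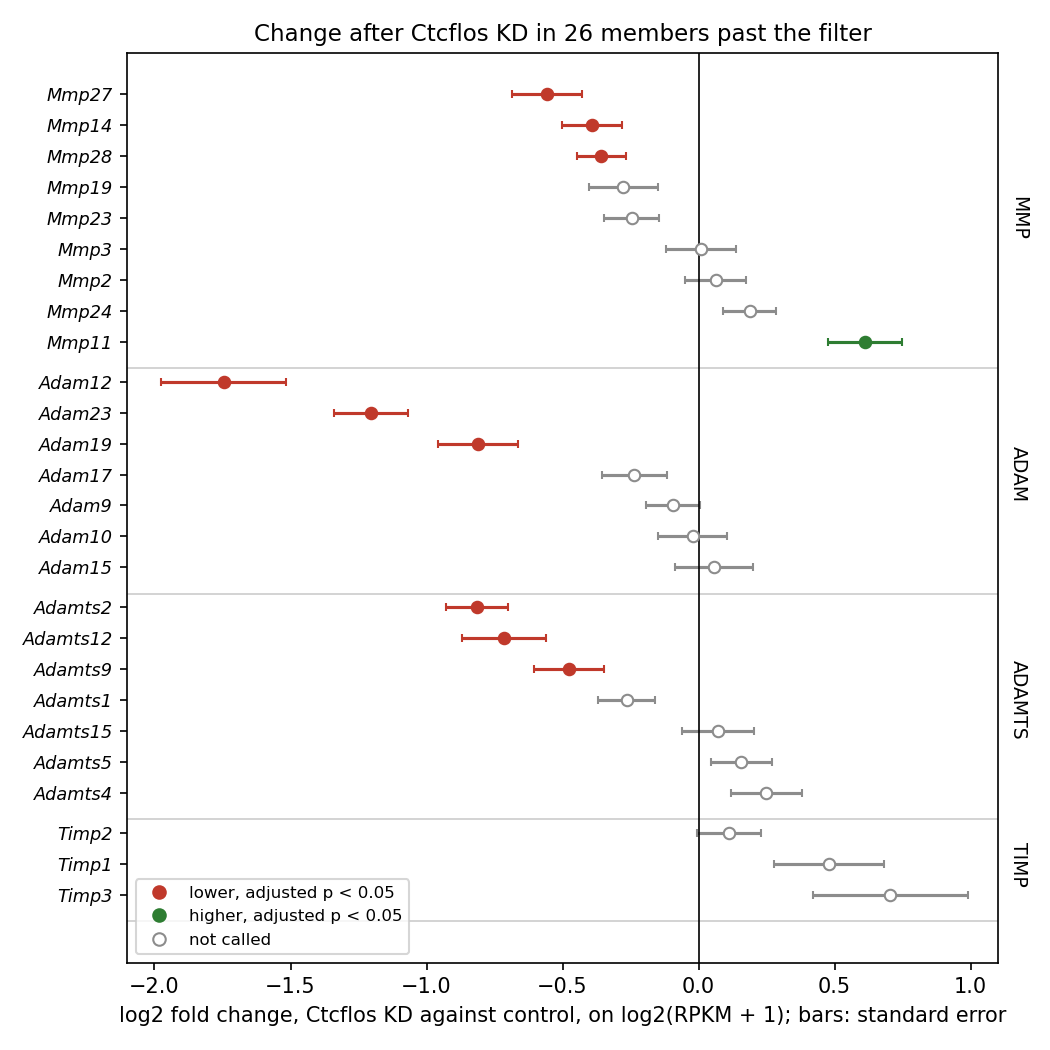
Log2 fold change of *Ctcflos* KD against control on the log2(RPKM + 1) scale with standard error for the same 26 genes, by family. Red points are lower and the green point is higher at an adjusted p under 0.05, and open points were not called. All 9 red points lie in the 3 protease families, with *Adam12* farthest from 0, at -1.75.

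Of 7 ADAMTS genes tested, 3 fell. *Adamts2*, the procollagen N-proteinase that trims fibrillar collagen precursors, had 2.22, 1.55 and 2.17 RPKM in KD and 4.24, 4.09 and 4.30 RPKM in controls. It fell to 47.0% of control, and the groups stood clear of each other (log2 fold change -0.81 ± 0.11, limma adjusted p = 0.00558). *Adamts12*, which can cleave cartilage oligomeric matrix protein, had 5.10, 5.42 and 7.96 RPKM against 10.02, 10.9 and 10.8 RPKM. It fell to 58.2% of control, and KD replicate 3 was the KD library closest to the controls (log2 fold change -0.72 ± 0.15, limma adjusted p = 0.0172). *Adamts9*, a proteoglycan-degrading member, had 2.12, 1.62 and 2.65 RPKM against 3.50, 3.15 and 3.30 RPKM. It fell to 64.2% of control without overlap (log2 fold change -0.48 ± 0.13, limma adjusted p = 0.0334), and its exons overlap those of *A730049H05Rik* and *Gm15737* on the opposite strand.

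The classical proteoglycanases were not called. *Adamts1*, the most abundant ADAMTS gene and a versican-cleaving enzyme, had 14.6, 13.8 and 14.4 RPKM in KD and 16.2, 18.6 and 17.3 RPKM in controls. Although the groups did not overlap, the change to 82.2% of control did not pass (log2 fold change -0.26 ± 0.11, limma adjusted p = 0.103). The aggrecanases *Adamts4* and *Adamts5* stood at 127% and 115% of control and *Adamts15* at 107%, each with overlapping libraries (adjusted p from 0.192 to 0.710).

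Among MMPs, the most abundant was *Mmp19*, which cleaves basement membrane proteins, with 43.9, 50.6 and 46.8 RPKM in KD and 52.8, 62.8 and 56.2 RPKM in controls. All KD libraries were below all controls, yet the change to 82.2% of control was not called (log2 fold change -0.28 ± 0.12, limma adjusted p = 0.142). *Mmp2*, or gelatinase A, stood at 18.3 ± 1.52 RPKM in KD and 17.5 ± 1.08 RPKM in controls and overlapped (adjusted p = 0.709). *Mmp14*, or MT1-MMP, the membrane-anchored collagenase that activates the MMP2 proform at the cell surface, had 7.87, 6.67 and 7.77 RPKM in KD and 9.60, 9.58 and 11 RPKM in controls. It fell to 73.9% of control with the groups apart (log2 fold change -0.39 ± 0.11, limma adjusted p = 0.0383).

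*Mmp27*, of the stromelysin subgroup, had 0.853, 1.21 and 0.699 RPKM in KD and 1.79, 1.54 and 2.13 RPKM in controls and fell to 50.6% of control (log2 fold change -0.56 ± 0.13, limma adjusted p = 0.0209). *Mmp28*, or epilysin, had 1.08, 0.941 and 0.945 RPKM against 1.58, 1.38 and 1.69 RPKM and fell to 63.8% of control (log2 fold change -0.36 ± 0.09, limma adjusted p = 0.0284). Neither gene had overlapping groups. The exons of *Mmp28* overlap those of *1700020L24Rik* on the opposite strand, which had a mean of 1.62 RPKM and was not called (log2 fold change -0.25, limma adjusted p = 0.215).

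*Mmp11*, or stromelysin-3, an MMP that furin activates within the secretory pathway, moved the other way. It had 4.66, 4.45 and 3.58 RPKM in KD and 1.91, 2.53 and 2.85 RPKM in controls, so that each KD library exceeded each control. The KD mean was 174% of the control mean (log2 fold change 0.61 ± 0.13, limma adjusted p = 0.0184). Its exons overlap those of *Chchd10* on the opposite strand, a gene at 83.0 RPKM that was not called (log2 fold change -0.14, limma adjusted p = 0.648). *Mmp24*, or MT5-MMP, was also above all controls, with 1.49, 1.23 and 1.08 RPKM against 1.02, 0.969 and 0.966 RPKM, but did not pass (adjusted p = 0.193), and it overlaps exons of *BC029722*, at 12.1 RPKM. *Mmp23*, a short type II membrane MMP, stood at 78.5% of control without overlap (adjusted p = 0.114), and *Mmp3*, or stromelysin-1, at 102% with overlap (adjusted p = 0.969).

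Of the 4 inhibitors 3 were tested and none was called. *Timp4*, with a mean of 0.0307 RPKM in KD and 0.0520 RPKM in controls, was under the filter. *Timp1*, the soluble inhibitor of most MMPs, had 127, 136 and 89.5 RPKM in KD and 69.4, 101 and 80.6 RPKM in controls. KD replicate 3 fell within the range of the controls, and the change to 140% of control did not pass (log2 fold change 0.48 ± 0.20, limma adjusted p = 0.120). *Timp3*, which is held in the matrix and inhibits ADAM17 and the aggrecanases in addition to MMPs, had 8.51, 8.38 and 12.3 RPKM in KD and 3.78, 9.48 and 4.47 RPKM in controls. Control replicate 2 alone lay within the KD range (165% of control, log2 fold change 0.71 ± 0.29, limma adjusted p = 0.107). *Timp3* was thus highest in the same library of each group as *Lyz2* and *Acta2*, and the part of that difference between libraries in the result was not tested. *Timp2*, which takes part in MMP2 activation with MMP14, had 15.8 ± 1.38 RPKM in KD and 14.5 ± 1.15 RPKM in controls (adjusted p = 0.501). Without KD replicate 3 and control replicate 2, a choice made after seeing the data, 12 members were called, that is, the same 10 and in addition *Timp1* and *Timp3*, both higher. Calls rose over all genes as well in that fit, to 4577 from 2803 with all libraries. Summed over the 4 TIMP genes the level was 153, 160 and 116 RPKM in KD and 86.8, 126 and 99.3 RPKM in controls, while the MMP sum was 84.4, 92.4 and 83.8 RPKM against 92.5, 104 and 101 RPKM.

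The direction of the called genes did not rest on a single transcript model, though *Mmp28* was not called when the strongest accession of each gene was used. In each of the 9 lower genes, all accessions with a mean of at least 1 RPKM were lower in KD. Over 3 accessions of *Adam12* the KD mean ranged from 28.6 to 30.1% of control, over 11 of *Adam23* from 23.9 to 36.9%, over 4 of *Adamts2* from 38.0 to 52.0% and over 7 of *Adamts12* from 55.0 to 64.8%. For *Mmp11* all 5 accessions were higher, at 170 to 185% of control. Accessions of a gene share reads and are no independent measurements.

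The members that fell included most of the long genes. In the Gencode vM21 annotation of GRCm38, *Adam12* covers chr7:133883199-134232146 (349 kb, minus strand), *Adamts12* chr15:11064790-11349231 (284 kb, plus), *Adamts2* chr11:50602084-50807573 (205 kb, plus), *Adamts9* chr6:92772699-92943492 (171 kb, minus) and *Adam23* chr1:63445891-63596276 (150 kb, plus). With *Adam10* at chr9:70678997-70780229 (101 kb, plus) these were the 6 expressed members of at least 100 kb, and 5 of them were called lower, against 45.1% of all tested genes of that span. *Adam19* lay just inside the shorter class at 91.4 kb (chr11:46055992-46147343, plus). Of the 20 members under 100 kb, 4 were called lower, against 10.2% of all tested genes of that span.

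Over all tested genes with a span, the class median of the log2 fold change was 0.079 for genes shorter than 10 kb and 0.10 for those of 10 to 30 kb. It lay at -0.04 in the class that ends at 100 kb, at -0.28 in the next, which ends at 200 kb, and at -0.57 in the longest genes. *Adam12*, *Adamts2* and *Adamts12* lay below the median of the longest class, and *Adam23* and *Adamts9* below that of the class before it, while *Adam10* lay above it. The short MMP genes *Mmp14* (13.8 kb), *Mmp27* (10.5 kb) and *Mmp28* (22.3 kb) fell although the median of their class was above 0. Whether span takes part in the decrease of these genes was not tested.

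**Figure D3:**
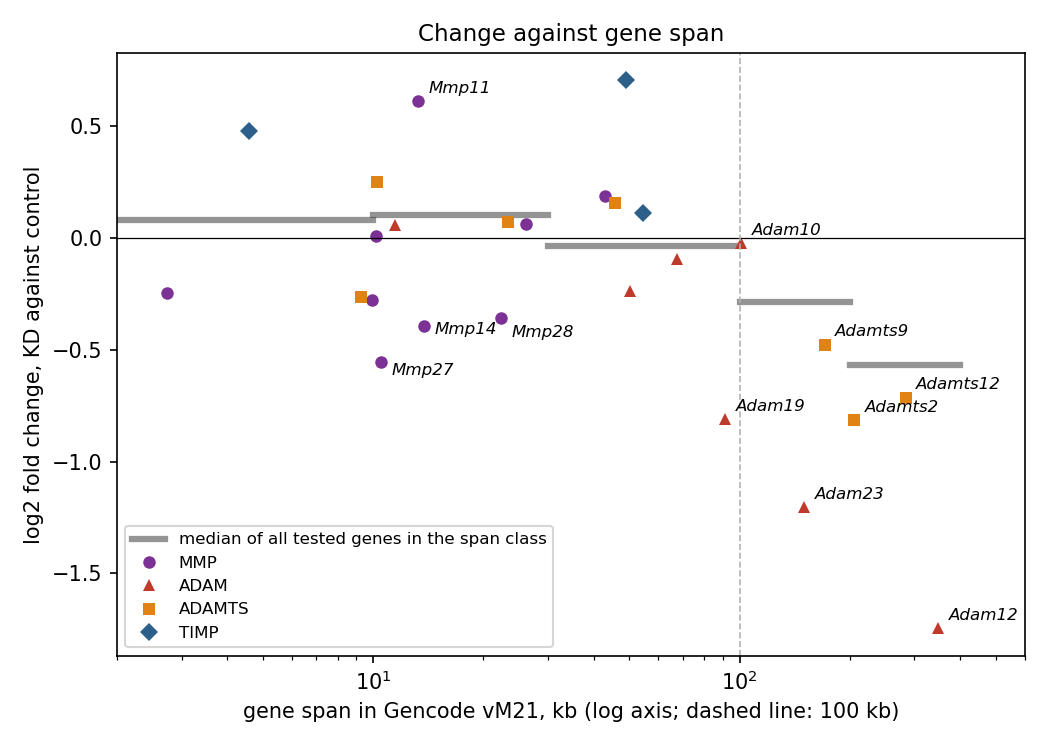
Log2 fold change of *Ctcflos* KD against control on log2(RPKM + 1), against gene span in kb (log axis) for the 26 expressed members, with 1 symbol per family. Grey bars give the median of all tested genes in each span class, the last of which is open to the right, and the dashed line marks 100 kb. The 5 lower genes beyond the line lie under their grey bar, whereas *Adam10* lies above it.

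A block of 10 *Mmp* genes on chromosome 9 allowed neighbours to be compared. In chromosomal order these are *Mmp13*, *Mmp12*, *Mmp1b*, *Mmp3*, *Mmp1a*, *Mmp10*, *Mmp8*, *Mmp27*, *Mmp20* and *Mmp7*, from 7272514 to 7699585. Promoters of this block are known targets of AP-1, the dimer of Fos and Jun proteins. RefSeq promoter windows (GRCm38.p6, 250 bases before to 50 after the start) were found for 49 of the 79 members and searched on both strands for the AP-1 word TGAGTCA, whose reverse complement is TGACTCA. The word was in 7 of 10 windows of the block (70.0%), in 10 of 49 members (20.4%) and in 5.95% of all 27025 genes with a window. The 10 members with the word include the 7 of the block, so that the block makes up most of the members' share. Of 19 expressed members with a window, only *Mmp3* and *Adam19* had it. The stretches around the word are given for *Mmp13* and *Mmp12*, whose KD means lay on opposite sides of their control means, for *Mmp3*, with like means in both groups, and for *Adam19*, which fell, with the word in capitals, each on the plus strand and in the direction of transcription. They lie at chr9:7272452-7272512 (*Mmp13*), chr9:7347303-7347363 (*Mmp12*), chr9:7445749-7445809 (*Mmp3*) and chr11:46055826-46055886 (*Adam19*).
*Mmp13*: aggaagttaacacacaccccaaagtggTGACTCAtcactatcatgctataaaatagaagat
*Mmp12*: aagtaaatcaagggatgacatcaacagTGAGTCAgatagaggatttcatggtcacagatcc
*Mmp3*: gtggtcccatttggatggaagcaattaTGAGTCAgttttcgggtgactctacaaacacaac
*Adam19*: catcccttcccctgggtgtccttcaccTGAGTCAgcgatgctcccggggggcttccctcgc

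The word began 35 bases before the RefSeq start in *Mmp13*, 44 in *Mmp12*, 46 in *Mmp3* and 131 in *Adam19*. These 3 *Mmp* promoters thus carried it between 35 and 46 bases before the start, with RNA levels from under 1 RPKM to above it. *Mmp27*, *Mmp8* and *Mmp20* lacked it, which says only that these letters are not in the window, and a match is a description and no evidence of binding.

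Within the block, *Mmp3* had 2.77, 3.45 and 2.20 RPKM in KD and 2.77, 2.89 and 2.60 RPKM in controls, whereas *Mmp27*, further along on the same strand, fell as described above. *Mmp12*, or macrophage elastase, had 0.0711, 0.0740 and 0.107 RPKM in KD and 0.283, 0.535 and 0.252 RPKM in controls, without overlap (limma without a filter, adjusted p = 0.0731). It was highest in control replicate 2, the library with most *Lyz2*, and each KD library was also below the other controls. *Mmp13*, or collagenase 3, had 0.445, 0.357 and 0.165 RPKM in KD and 0.0658, 0.222 and 0.103 RPKM in controls, with overlap (adjusted p = 0.209). *Mmp8* and *Mmp10* stayed at or under 0.181 RPKM in each library, and *Mmp1a*, *Mmp1b*, *Mmp20* and *Mmp7* were listed at 0 throughout.

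**Figure D4:**
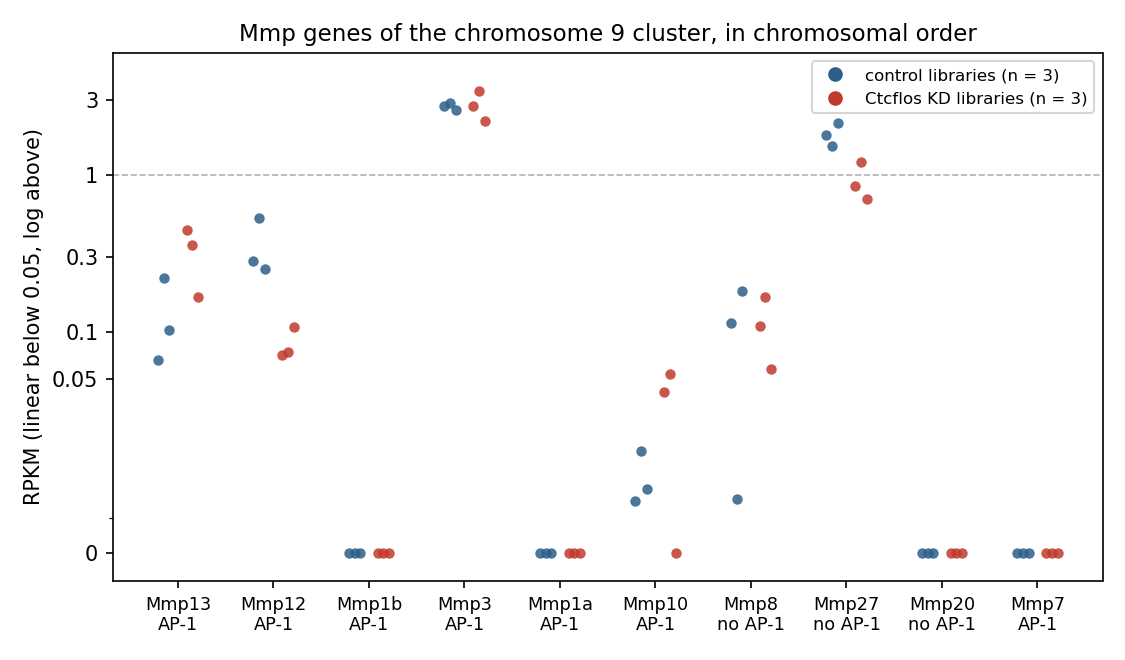
RPKM per library of the 10 *Mmp* genes of the chromosome 9 block in chromosomal order, on an axis that is linear below 0.05 and logarithmic above, with control libraries in blue and *Ctcflos* KD libraries in red. Labels under each gene give whether the AP-1 word is in its promoter window, and the dashed line marks 1 RPKM. *Mmp3* and *Mmp27* are the genes that reach the line, and of these only *Mmp27* has red points below all blue points.

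The other 53 members had a mean under 1 RPKM, and 16 of them (4 MMP and 12 ADAM genes) were listed at 0 in all libraries. When limma was run without this filter, the 16 genes at 0 did not enter and 37 of the 53 did. None of the 37 was called, against 2.60% of all genes under 1 RPKM that entered, and 13 had an unadjusted p under 0.05. KD libraries were below all controls in 8 and above in 8. For these counts and for the unadjusted p the share over all genes under 1 RPKM was not taken, so that they are description only. Of the 10 that reached a mean of 0.3 RPKM in either group, *Mmp17*, a GPI-anchored MMP, was the most abundant in controls, with 0.523, 0.341 and 0.687 RPKM in KD and 1.15, 1.17 and 1.01 RPKM in controls. The groups were apart, but the adjusted p was 0.0560, and it was called with RefSeq accessions alone (adjusted p = 0.0203) and with a pseudocount of 0.1 (adjusted p = 0.0499).

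*Adamts14*, a procollagen N-proteinase like *Adamts2*, had 0.258, 0.139 and 0.207 RPKM in KD and 0.433, 0.578 and 0.534 RPKM in controls, with no overlap (adjusted p = 0.0578). *Adamts10*, known for its link to fibrillin microfibrils, had 0.499, 0.554 and 0.653 RPKM against 0.803, 0.946 and 0.855 RPKM, also with no overlap (adjusted p = 0.147). *Adamts19* (0.172 against 0.351 RPKM) and the membrane-type *Mmp15* (0.190 against 0.355 RPKM) likewise had all KD libraries below all controls, with adjusted p of 0.112 and 0.142. *Adam1a*, an ADAM of sperm maturation, had 0.592, 0.423 and 0.385 RPKM in KD and 0.182, 0.213 and 0.207 RPKM in controls and was the sole gene of the 10 with all KD libraries above (adjusted p = 0.0802). *Adam4* (0.322 against 0.533 RPKM) and *Adamts6* (0.533 against 0.314 RPKM) overlapped. The 27 remaining genes with any value above 0 had a mean of at most 0.214 RPKM.

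Partners of these proteases were counted in 4 lists that were drawn up from textbook knowledge with earlier results of these data known. Of 22 genes of MMP activation and pericellular proteolysis, 13 were tested, 3 rose and 2 fell, with a median log2 fold change of -0.12. The counts of all 4 lists stand beside 11.5% called higher and 12.4% called lower over all genes tested. No list was compared with these shares by a test. *Plaur*, the receptor that concentrates urokinase at the cell surface, had 6.49, 6.26 and 3.70 RPKM in KD and 0.843, 1.40 and 1.05 RPKM in controls, a 5-fold difference without overlap (log2 fold change 1.61 ± 0.19, limma adjusted p = 0.00373). *Tfpi2*, a matrix-bound serine protease inhibitor, rose 1.70-fold (log2 fold change 0.71) and *Cd44*, the hyaluronan receptor that can dock MMPs, 1.49-fold (log2 fold change 0.52, limma adjusted p = 0.0465). *Serpine2*, a serpin that blocks thrombin and urokinase, fell by 0.50 and *Bmp1*, the procollagen C-proteinase, by 0.43 on the log2 scale. *Serpine2* had a mean of 0.708 RPKM in KD and 1.43 RPKM in controls, so that it passed the filter through the controls alone. When 1 library was omitted, *Plaur* was called in 6 of 6 fits, *Tfpi2* in 5 of 6, *Cd44* and *Bmp1* in 2 of 6 each (highest limma adjusted p 0.17 and 0.123) and *Serpine2* in 1 of the 5 fits that it entered. *Cd44* was also not called with median of ratios scaling (adjusted p = 0.0627) or with the strongest accession (adjusted p = 0.0554), and *Cd44*, *Serpine2* and *Bmp1* were not called without the filter on low values (adjusted p = 0.106, 0.0632 and 0.0732).

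*Bmp1*, which trims the end of fibrillar procollagens opposite to that cleaved by *Adamts2*, lost its call in fits in which *Adamts2* kept it. *Bmp1* stood at 3.93, 2.84 and 3.25 RPKM in KD and 4.70, 4.73 and 4.98 RPKM in controls (limma adjusted p = 0.0310). Of 9 partners of ADAM10 and ADAM17, 6 were tested and 2 fell, both of them tetraspanins that escort ADAM10 to the cell surface. *Tspan14* had 4.92, 4.95 and 6.61 RPKM in KD and 8.68, 7.99 and 9.66 RPKM in controls, and *Tspan5* 1.40, 1.49 and 1.90 RPKM against 2.49, 2.57 and 2.79 RPKM (log2 fold changes -0.60 and -0.48, limma adjusted p = 0.0184 and 0.0170). Both were called in 2 of 6 fits with 1 library omitted (highest adjusted p 0.0851 for *Tspan5* and 0.0871 for *Tspan14*), and *Tspan14* was not called without the filter (adjusted p = 0.0504). *Adam10* itself was not called.

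Of 22 substrates that ADAMs shed, 11 were tested, 3 rose and none fell, with a median log2 fold change of -0.09. *Tnfrsf1b*, TNF receptor 2, had 6.22, 5.82 and 2.21 RPKM in KD and 1.70, 1.5 and 1.62 RPKM in controls (log2 fold change 1.05 ± 0.28, limma adjusted p = 0.0308), with KD replicate 3 nearest to the controls. *Cx3cl1*, a membrane-bound chemokine, had 1.88, 1.59 and 2.15 RPKM against 0.845, 1.21 and 0.930 RPKM (log2 fold change 0.53 ± 0.11, limma adjusted p = 0.0170). Its control mean was 0.994 RPKM, so that it passed the filter through the KD libraries alone. *Btc*, an EGF receptor ligand, was at the edge of the threshold (log2 fold change 0.61 ± 0.19, limma adjusted p = 0.0498). With 1 library omitted, *Cx3cl1* was called in 4 of 6 fits and *Tnfrsf1b* and *Btc* in 1 of 6, that without KD replicate 3, and without the filter none of the 3 was called (adjusted p = 0.0511, 0.0895 and 0.123). Of 15 ADAMTS-like proteins and ADAMTS substrates 3 were tested and none was called.

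Markers of other cells moved with some of these genes. The 7 macrophage markers summed to 6.65 to 16.4 RPKM in KD and 8.16 to 27.9 RPKM in controls. Of these 2 were tested, and *Cd68* rose (log2 fold change 1.05, limma adjusted p = 0.0230). *Lyz2* had the opposite sign and was not called (log2 fold change -1.45, limma adjusted p = 0.167). *Adgre1*, which encodes F4/80, stayed at or under 0.345 RPKM. The 5 smooth muscle and pericyte markers summed to 18 to 50.0 RPKM in KD and 33.3 to 87.1 RPKM in controls, with no call. Of 5 adipose progenitor markers, 3 were tested and *Pdgfra* fell (log2 fold change -0.69, limma adjusted p = 0.0104). *Ly6a* and *Cd34* were not called, with log2 fold changes of -0.36 and 0.17. Of 4 mesothelial markers *Lrrn4* alone was tested and fell (log2 fold change -0.42, limma adjusted p = 0.0339), while *Msln*, *Upk3b* and *Wt1* stayed at or under 0.0994 RPKM. Over all genes tested, 11.5% were called higher and 12.4% lower. With 1 library omitted, *Cd68* and *Lrrn4* were called in 2 of 6 fits, *Pdgfra* in 4 of 6 and *Cebpa* in 1 of 6. The part of these cell markers in the protease results was not tested.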

How the data were processed

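Per the labels, the 6 libraries are 3 *Ctcflos* KD and 3 nontargeting control samples, numbered 1 to 3. The authors deposited RPKM values with decimal commas for transcript accessions. The tool behind it, and whether strand was used, are not given in the sources used here. Of 168326 lines, 305 exact repeats were removed, and the gene value was the mean RPKM over the accessions of a symbol. The 79 members had 478 lines, namely 246 GenBank, 136 Ensembl, 94 RefSeq mRNA and 2 other RefSeq accessions. Genes with a mean of at least 1 RPKM were tested with limma-trend on log2(RPKM + 1), Benjamini-Hochberg adjusted over all of them. Fold changes on this scale understate the change of low genes. Because the deposited values are not counts, no count test was used. The members and lists were chosen with earlier results of these data known.

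Named were *Ctcflos*, each member past the filter, members below it with a mean of at least 0.3 RPKM in either group, and the called genes of each list. Depth was taken from the low values of Ensembl transcripts, of which 93.8 to 94.2% were whole multiples of 1 read within 0.05 reads. Alternatives were a pseudocount of 0.1, no filter, median of ratios scaling, an adjusted p of 0.01, the replicate number as a block, RefSeq mRNA accessions alone, the accession with the highest mean, exact repeats kept, and each library omitted in turn. Of 79 members, 79 matched Gencode vM21, as did 9420 tested genes (80.5%) for span. A planned search of protein motifs was not run. Software comprised Python 3.11.15 with matplotlib 3.10.9, numpy 2.4.6 and pandas 2.3.3, and R 4.3.3 with limma 3.58.1 and data.table (1.17.8).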

Additional observations from a re-analysis of the deposited data

How the results depend on the processing

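A pseudocount of 0.1, median of ratios scaling and kept repeats gave the same 10 members. RefSeq accessions alone called 11 and the strongest accession 10, sharing 10 and 9 with these and adding *Mmp17*. The gene that lost its call with the strongest accession was *Mmp28*. With no filter, 4 members were lower and 0 higher (*Adam12*, *Adam19*, *Adam23*, *Adamts2*), against 1057 and 750 over all genes. At an adjusted p of 0.01 the counts were 3 and 0, against 351 and 172 over all genes. The replicate numbers did not pair the samples: deviations of same-numbered libraries correlated at 0.29, -0.29 and -0.42, and 2 of 6 libraries correlated best with their own number. With the replicate block 5 members were lower and 1 higher, with 925 and 746 over all genes, and *Ctcflos* was no longer called (-0.66, adjusted p = 0.113). Omitting 1 library gave 3 to 9 lower and 0 to 2 higher members, 239 to 2083 lower and 130 to 2727 higher genes among all tested, and a *Ctcflos* log2 fold change of -0.72 to -0.63, called only without KD replicate 3. Only *Adam12*, *Adam23* and *Adamts2* were called in all 6 of these fits. Without KD replicate 1 there were 4 calls, without KD replicate 2 there were 5, without KD replicate 3 there were 11, and without control replicates 1, 2 and 3 there were 3, 8 and 3. Without KD replicate 3 and control replicate 2 together, chosen after seeing the data, 9 members were lower and 3 higher, with 2148 and 2429 genes among all tested, and *Ctcflos* was called (-0.73).

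Of members under 1 RPKM, none was called in the fit without a filter, but 3 were with a pseudocount of 0.1, 10 with RefSeq accessions alone (where fewer genes are tested), 0 to 4 when 1 library was omitted and 2 without KD replicate 3 and control replicate 2. For these alternative fits the share over all genes under 1 RPKM was not taken, so that their counts are description only. Directions turned for 4 genes that were never called. The log2 fold change of *Adam10* was 0.040 with the strongest accession and 0.016 without KD replicate 3 and control replicate 2, and ran from -0.14 to 0.062 with 1 library omitted. With 1 library omitted it ran from -0.078 to 0.20 for *Adam15*, from -0.042 to 0.15 for *Adamts15* and from -0.11 to 0.13 for *Mmp3*. Without KD replicate 3 and control replicate 2 it was -0.029 for *Adam15* and 0.15 for *Mmp3*, and with median of ratios scaling -0.015 for *Mmp3*. Other causes were not tested. At 60.8 mio reads or more, values near 0.1 RPKM rest on few reads.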
